A study of Mus musculus with 6 samples.

Results

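The T cell and natural killer (NK) cell genes are 35 genes chosen by name as markers and working parts of these lymphocytes. Each of the 35 is among the 24062 genes that the deposited count tables list by symbol, and 34 had at least 10 counts summed over the 6 libraries, the exception being *Gzmk* with 4. They were compared in bulk RNA-seq of mouse DRG/tumors between 3 libraries of *Nf1fl/fl;DhhCre* mice, which develop neurofibromas, and 3 libraries of mice floxed for *Runx1* and *Runx3* as well. All 6 mice carry *DhhCre*, a transgene in which the *Dhh* promoter drives Cre recombinase in the Schwann cell (SC) lineage. Recombination in lymphocytes was not measured here. The second genotype is written Rx1flfl;Rx3fl/fl;DhhCre in the sample labels, whereas the extraction protocol and the methods of the study add *Nf1fl/fl*, and that group is called labelled double knockout (dKO) here. The tissue is given as dorsal root ganglion (DRG) for the first group and as neurofibroma tumor for the second, and as DRG/tumors for both in the methods. The labelled tissue thus changes together with the genotype, and differences of tissue and of genotype cannot be told apart here. The strain background is C57BL/6-I129 in every label, a mixed one, and the age of the mice is not given in the sources used here.

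T cells recognise antigen through the T cell receptor, whose CD3 and zeta chains pass the signal to the kinases LCK and ZAP70 and the adaptor LAT. CD4 and CD8 sort T cells into helper and cytotoxic classes, costimulatory receptors such as CD28 raise the response, and inhibitory receptors such as CTLA4 lower it. NK cells kill without an antigen receptor of this kind, through activating and inhibitory receptors and the same granules of granzymes and perforin that cytotoxic T cells use. In neurofibromas these lymphocytes are known as part of an immune infiltrate in which macrophages and mast cells are also found.

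The libraries held 12439296 to 16682194 counts, and 3 counts were worth 0.179 to 0.247 CPM, the unit of every level here, which are counts brought to a common library size with TMM scaling. *Runx1*, the first of the floxed genes, was at 131, 141 and 172 CPM in the *Nf1fl/fl;DhhCre* libraries and 84.0, 78.9 and 185 CPM in those labelled dKO, so that replicate 3 of the latter goes against its label. *Runx3* was at 19.9, 15.1 and 29.9 CPM against 13.5, 10.3 and 12.1 CPM, without overlap. Counts per gene do not show whether the floxed exon is missing. One dKO-labelled library was sequenced in another run, and the mouse numbers in the labels and in the count tables disagree on whether it is replicate 2 or 3. Skeletal muscle genes summed to 2130 CPM in *Nf1fl/fl;DhhCre* replicate 2 and 10900 CPM in dKO-labelled replicate 2, against 4.55 to 59.1 CPM in the other libraries. Over all 15652 genes tested, 5.36% were called lower and 8.03% higher in the dKO-labelled libraries, where called means a Benjamini-Hochberg adjusted p below 0.05 in limma-voom and a change of more than 2-fold.

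Summed over the 35 genes, the level was 89.1, 72.7 and 177 CPM in the *Nf1fl/fl;DhhCre* libraries and 30.4, 33.8 and 31.8 CPM in the dKO-labelled libraries. The groups did not overlap, and the dKO-labelled libraries lay within a narrow range of each other. *Nf1fl/fl;DhhCre* replicate 3 stood above the rest and held the highest value of the 6 libraries for 28 of the 35 genes. The mean level was lower in the dKO-labelled libraries for 34 of the 35 genes, against 48.9% of the 18020 genes with at least 10 counts over all libraries. The exception, *Gzma*, was at 0.387 CPM in both groups. In bulk samples, fewer cells of a type and less RNA per cell cannot be told apart.

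**Figure D1:**
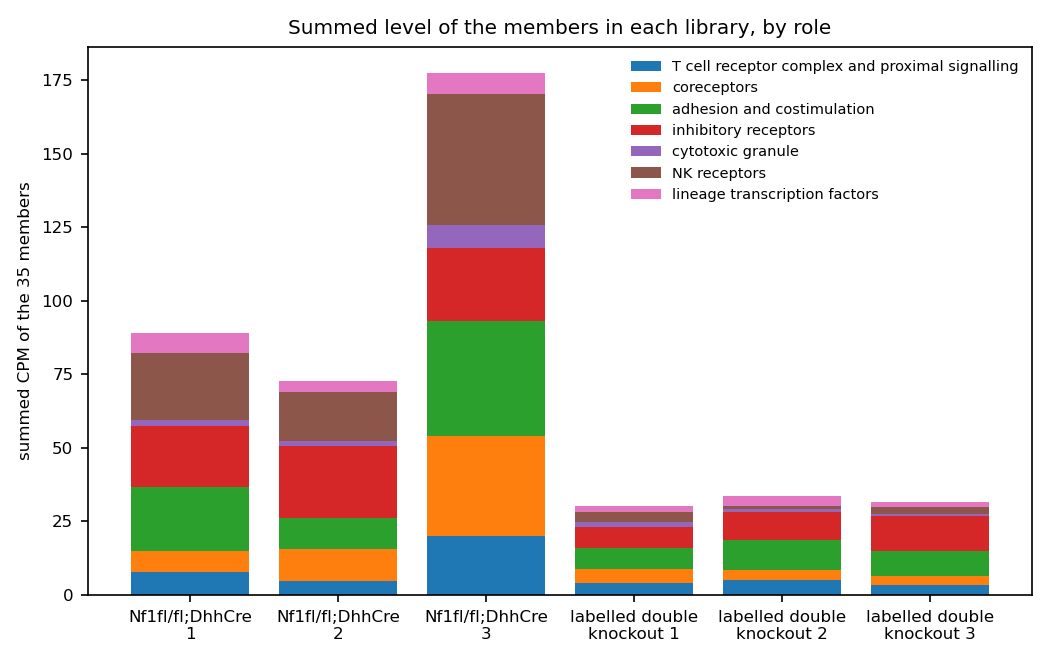
The stacked bars give the CPM of the 35 genes summed by role in each of the 6 libraries. The *Nf1fl/fl;DhhCre* libraries reach 89.1, 72.7 and 177 CPM and those labelled dKO 30.4 to 33.8 CPM, and the segment of the NK receptors shrinks from between 16.5 and 44.6 CPM to between 1.15 and 3.51 CPM.

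Of the 35 genes, 26 passed the filter on low counts and were tested, and 4 of them were called lower by limma-voom, *Klrb1c*, *Ctla4*, *Klrd1* and *Tigit*. That is 15.4% of those tested, against 5.36% of all genes. None was called higher by limma-voom, and with an unadjusted p below 0.05 there were 12 lower and 0 higher, against 16.1% and 19.1% of all genes. edgeR's quasi-likelihood test called 7 lower and DESeq2 10, each including the same 4 genes, against 6.23% and 7.90% of all genes. Neither called any of the 26 higher, against 8.24% of all genes for edgeR and 10.7% for DESeq2. Without overlap between the groups were 14 of the 26, all with the dKO-labelled libraries lower, against 20.5% of all genes tested, and 0 with them higher, against 21.8%. Each of the 26 was estimated below 0, as were 48.9% of all genes tested. The median log2 fold change of the 26 was -1.76 and that of all genes tested 0.02. The filter shaped this set, since 15 of the 26 reached its level of 0.691 CPM in each *Nf1fl/fl;DhhCre* library but not in each dKO-labelled library, so that these counts and the median only describe the genes that passed.

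**Figure D2:**
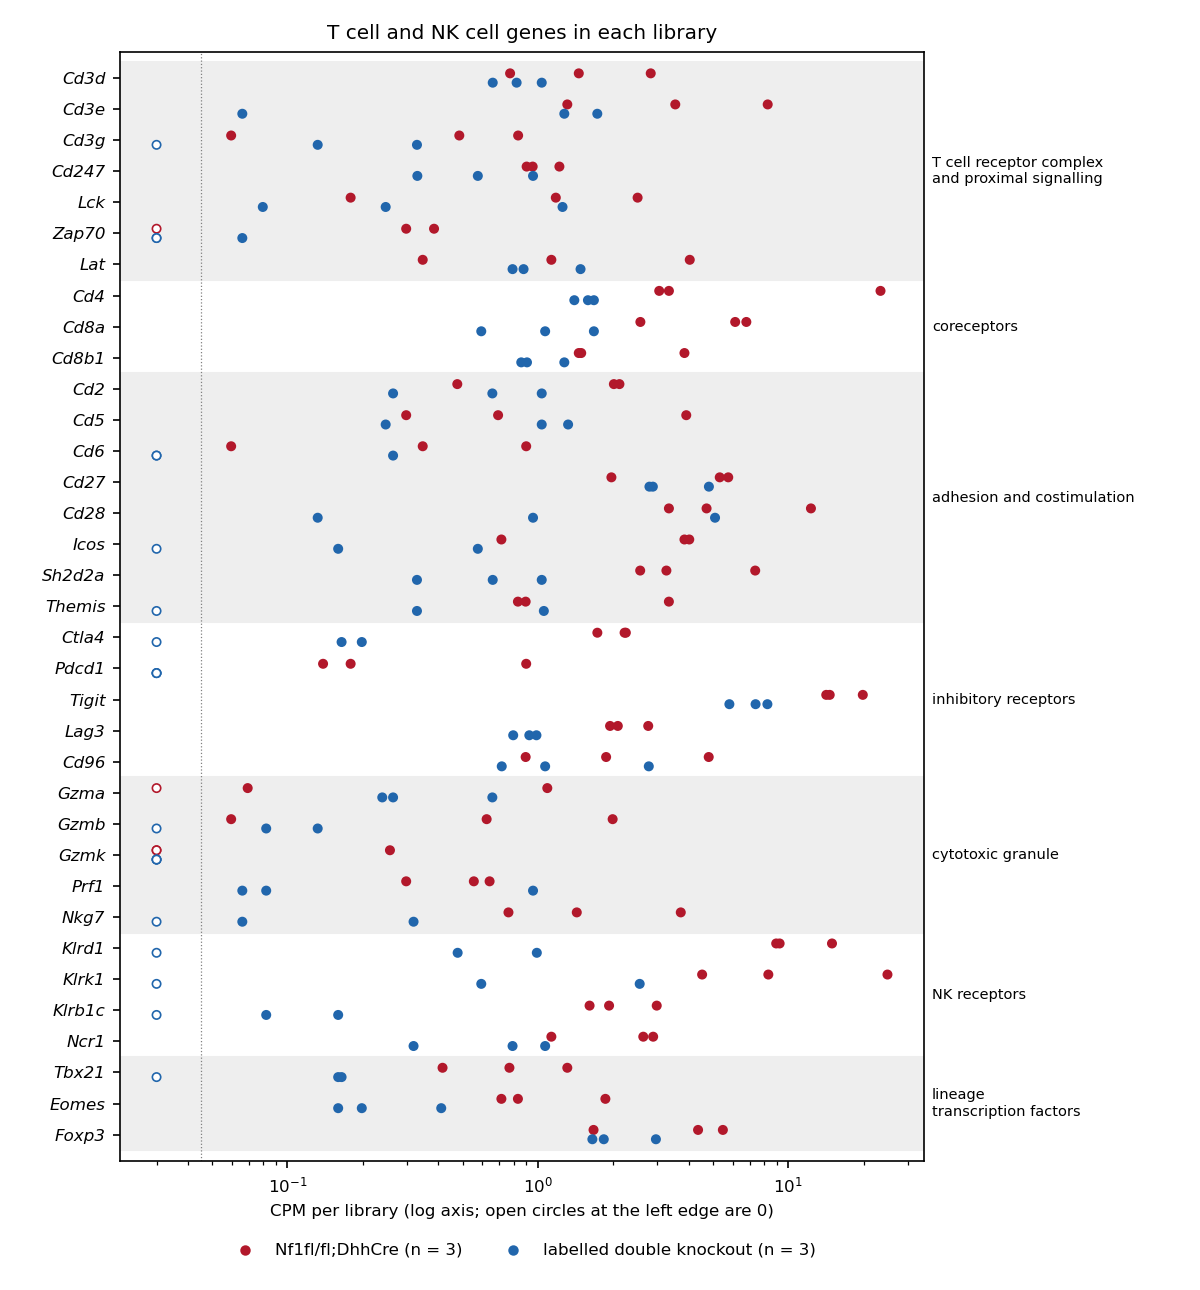
Each point is the CPM of 1 gene in 1 library on a log axis, with open circles at the left edge for libraries with no count. Points of the dKO-labelled libraries lie to the left of all *Nf1fl/fl;DhhCre* points for 16 of the 35 genes. Of these, 14 are among the 26 tested, and 20.5% of all genes tested separate in this way. Each of the 4 NK receptors and each of the 3 coreceptors is among the 16, and the points mix for the genes of the T cell receptor complex.

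Of the 4 NK receptors, 2 fell, *Klrd1* and *Klrb1c*. *Klrd1* encodes CD94, the partner chain of the NKG2 receptors that read the class I molecule Qa-1. It was at 8.95, 9.23 and 14.9 CPM in the *Nf1fl/fl;DhhCre* libraries, against 0.478, 0 and 0.990 CPM in the dKO-labelled libraries. All *Nf1fl/fl;DhhCre* values were thus far above the others, and dKO-labelled replicate 2 had no count at all among its 12813735. The log2 fold change was -5.17 (SE 1.08, limma-voom adjusted p = 0.0209).

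*Klrb1c*, which encodes the NK1.1 antigen of C57BL/6 mice, was at 2.98, 1.61 and 1.92 CPM against 0.159, 0.0822 and 0 CPM in the dKO-labelled libraries. Only 3 reads were counted in the latter group and 100 in the former, a ratio of 28.4 with an exact 95% interval of 9.44 to 140 for counting error alone. Its log2 fold change was -4.49 (SE 0.87, limma-voom adjusted p = 0.0174). *Klrk1* encodes NKG2D, an activating receptor for stress-induced ligands. It was at 8.32, 4.53 and 24.9 CPM in the *Nf1fl/fl;DhhCre* libraries, against 2.55, 0 and 0.594 CPM in those labelled dKO. The groups did not overlap, but each was widely spread, and the log2 difference of -4.53 (SE 1.80) did not pass (limma-voom adjusted p = 0.120). It was -3.02 without dKO-labelled replicate 2 and -5.69 without dKO-labelled replicate 1.

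*Ncr1*, which encodes NKp46 and marks NK cells and related innate lymphoid cells, was at 2.64, 1.13 and 2.89 CPM against 0.319, 1.07 and 0.792 CPM. The nearest libraries of the 2 groups were 1.13 and 1.07 CPM, and the log2 difference of -1.56 (SE 0.69) did not pass (limma-voom adjusted p = 0.155). *Klrb1c*, *Klrd1* and *Klrk1* lie in the NK gene complex on chromosome 6 of GRCm38, between 128778485 and 129623864, and *Ncr1* on chromosome 7 from 4337724 to 4345164. *Klrb1c*, *Klrd1* and *Klrk1* belong to families of similar genes, and their counts are uncertain where reads could have been split between copies. The strain background is mixed in every label, and which alleles of this complex each mouse carried was not tested.

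Of the 5 inhibitory receptors 4 were tested and 2 fell, *Ctla4* and *Tigit*. *Ctla4*, which competes with CD28 for CD80 and CD86, was at 2.22, 1.73 and 2.25 CPM in the *Nf1fl/fl;DhhCre* libraries, against 0, 0.164 and 0.198 CPM in those labelled dKO. The 3 *Nf1fl/fl;DhhCre* libraries were close to each other, and *Ctla4* fell with a log2 fold change of -4.06 (SE 0.82, limma-voom adjusted p = 0.0189). It lies on chromosome 1 from 60887000 to 60915832 (GRCm38). Its neighbours there, *Cd28* and *Icos*, did not pass in limma-voom, whereas DESeq2 called *Icos* lower (-3.58, DESeq2 adjusted p = 0.00623).

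*Tigit*, an inhibitory receptor that binds the poliovirus receptor PVR, lies on chromosome 16 from 43648867 to 43664146. It was at 14.6, 19.8 and 14.2 CPM against 5.82, 7.40 and 8.25 CPM. The values within each group were close to each other, and its log2 fold change was -1.17 (SE 0.25, limma-voom adjusted p = 0.0221). Per kilobase of exon *Tigit* had the highest level of the 35 genes in both groups, 17.6 CPM per kb in the *Nf1fl/fl;DhhCre* libraries and 7.79 CPM per kb in those labelled dKO. On the same scale *Cd3e* had 1.07 and 0.251 CPM per kb and *Cd4* 2.46 and 0.385 CPM per kb. The level of *Tigit* was thus many times that of the CD3 chains, and it made 16.4%, 27.3% and 7.99% of the summed CPM in the *Nf1fl/fl;DhhCre* libraries and 19.2%, 21.9% and 26.0% in the others. The sums without *Tigit* were 74.4, 52.8 and 163 CPM against 24.5, 26.4 and 23.5 CPM, again without overlap.

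*Lag3*, which binds MHC class II, was at 1.94, 2.09 and 2.76 CPM against 0.797, 0.987 and 0.924 CPM. Its groups were apart, and the log2 difference of -1.28 (SE 0.44) did not pass (limma-voom adjusted p = 0.0817). *Cd96*, a relative of *Tigit* that shares its ligand, was at 1.87, 0.894 and 4.81 CPM against 0.717, 1.07 and 2.77 CPM, with overlap and a log2 difference of -0.54 (SE 0.80). *Pdcd1*, which encodes the checkpoint receptor PD-1, had 2, 3 and 14 reads in the *Nf1fl/fl;DhhCre* libraries and 0 in each of the others. It was too low to be tested, and 2 of the 3 *Nf1fl/fl;DhhCre* libraries were at or under 3 reads.

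For the T cell receptor complex and its first signalling steps no gene was called. *Cd3e*, the epsilon chain, was at 3.54, 1.31 and 8.27 CPM in the *Nf1fl/fl;DhhCre* libraries, against 1.28, 1.73 and 0.0660 CPM in those labelled dKO. In this gene dKO-labelled replicate 3 held a single read, and only replicate 2 of that label lay above an *Nf1fl/fl;DhhCre* library, replicate 2. The log2 difference was -2.58 (SE 1.31, limma-voom adjusted p = 0.205). With single libraries left out it ranged from -3.34, without dKO-labelled replicate 2, to -1.13, without dKO-labelled replicate 3.

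*Cd3d*, the delta chain encoded beside it on chromosome 9, was at 1.46, 0.774 and 2.82 CPM against 1.04, 0.822 and 0.660 CPM. *Cd247*, the zeta chain, was at 0.902, 0.953 and 1.22 CPM against 0.956, 0.576 and 0.330 CPM. Both overlapped between the groups, with log2 differences of -0.80 (SE 0.66) and -0.83 (SE 0.59). Of the exon bases of *Cd247*, 56.4% also belong to exons of *Pou2f1* on the opposite strand, and without a stated strand in the counting the reads of these genes cannot be told apart. *Cd3g*, the gamma chain, had 7, 1 and 13 reads against 0, 4 and 2.

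*Lck*, the kinase that phosphorylates the CD3 and zeta chains, was at 1.18, 0.179 and 2.50 CPM against 0.0797, 0.247 and 1.25 CPM. *Lat*, the adaptor below it, which mast cells also use, was at 0.347, 1.13 and 4.04 CPM against 0.877, 1.48 and 0.792 CPM. Neither separated the groups, and in *Lat* the lowest value of the 6 was that of an *Nf1fl/fl;DhhCre* library. The log2 differences were -1.15 (SE 1.33) for *Lck* and -0.27 (SE 0.90) for *Lat*. For *Lck* it was -2.18 without *Nf1fl/fl;DhhCre* replicate 2 and -0.29 without dKO-labelled replicate 1. For *Lat* it was 0.61 without *Nf1fl/fl;DhhCre* replicate 3. *Zap70*, the kinase that binds the phosphorylated zeta chain, had 0, 5 and 6 reads against 0, 0 and 1, a ratio of 9.37 with an exact 95% counting interval of 1.36 to 403. Of the 7 genes of this role, 5 were tested, with 0 called by limma-voom, edgeR or DESeq2 and 0 at an unadjusted p below 0.05.

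For the coreceptors the 3 dKO-labelled libraries were below the 3 *Nf1fl/fl;DhhCre* libraries in each gene, although none was called by limma-voom. *Cd8a* was at 2.57, 6.14 and 6.80 CPM against 1.67, 1.07 and 0.594 CPM, and came closest to the threshold with a log2 difference of -2.24 (SE 0.67, limma-voom adjusted p = 0.0571). *Cd8b1*, the beta chain of CD8, was at 1.46, 1.49 and 3.85 CPM against 1.28, 0.905 and 0.858 CPM. *Cd4* was at 3.05, 3.34 and 23.3 CPM against 1.67, 1.398 and 1.58 CPM. The *Cd4* mean of the first group thus rested on replicate 3, and without that library its log2 difference was -0.99 instead of -1.98. CD4 is also found on some dendritic cells of the mouse. With an unadjusted p below 0.05 there was 1 coreceptor gene, edgeR called 1 and DESeq2 2. Lower at that p in limma-voom, by edgeR and by DESeq2 were 16.1%, 6.23% and 7.90% of all genes.

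The costimulatory and adhesion receptors varied among themselves, with log2 differences from -3.79 to -0.15 and none called by limma-voom. *Cd28*, the main costimulatory receptor, was at 4.72, 3.34 and 12.3 CPM against 0.956, 5.10 and 0.132 CPM. *Icos*, its inducible relative, was at 4.02, 0.715 and 3.85 CPM against 0.159, 0.576 and 0 CPM. *Cd28* overlapped through dKO-labelled replicate 2, whereas *Icos* did not overlap, and their log2 differences of -2.76 (SE 1.17) and -3.79 (SE 1.56) did not pass (limma-voom adjusted p = 0.139 and 0.130). Without dKO-labelled replicate 3 they were -1.37 and -2.65. Without *Nf1fl/fl;DhhCre* replicate 2 *Icos* was called, at -4.72 (limma-voom adjusted p = 0.0262).

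*Cd27*, a costimulatory receptor of the TNF receptor family, was at 5.76, 1.97 and 5.32 CPM against 2.79, 2.88 and 4.82 CPM. The groups overlapped through *Nf1fl/fl;DhhCre* replicate 2, the lowest of the 6 libraries, and the log2 difference of -0.15 (SE 0.51) was the smallest of the 26. Per kilobase of exon *Cd27* was in place 2 of the 35 genes in the dKO-labelled libraries, after *Tigit*, and in place 5 in the others, at 1.87 CPM per kb.

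*Cd2*, an adhesion receptor that binds CD48 in mice, was at 2.01, 0.477 and 2.12 CPM against 1.04, 0.658 and 0.264 CPM. *Cd5*, a scavenger-receptor family member that damps receptor signals, was at 0.694, 0.298 and 3.91 CPM against 1.04, 0.247 and 1.32 CPM. *Cd2* and *Cd5* both overlapped, and the *Cd5* difference of -0.31 changed sign without *Nf1fl/fl;DhhCre* replicate 3 (0.76) and without dKO-labelled replicate 2 (0.34). *Cd6*, a neighbour and relative of *Cd5*, had 5, 1 and 14 reads against 0, 0 and 4.

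*Sh2d2a* encodes TSAd, an adaptor that binds LCK. It was at 3.26, 2.56 and 7.38 CPM against 1.04, 0.329 and 0.660 CPM, without overlap, and its log2 difference of -2.60 (SE 0.77) was close to the threshold (limma-voom adjusted p = 0.0553). *Themis*, which thymocytes need to complete selection, was at 0.832, 0.894 and 3.34 CPM against 0, 0.329 and 1.06 CPM, and overlapped through dKO-labelled replicate 3. Of the 8 genes of this role, 7 were tested and 0 called by limma-voom, with 3 at an unadjusted p below 0.05, 1 called by edgeR and 2 by DESeq2. The shares of all genes that were lower by the last 3 rules were 16.1%, 6.23% and 7.90%.

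Apart from *Nkg7*, the genes of the cytotoxic granule were too low to be tested. *Nkg7*, which encodes a granule membrane protein, was at 0.763, 1.43 and 3.72 CPM against 0.319, 0 and 0.0660 CPM. It was the only one of the 5 that passed the filter, and its log2 difference was -3.87 (SE 1.20, limma-voom adjusted p = 0.0619), while edgeR and DESeq2 called it lower. The difference was -4.66 without dKO-labelled replicate 1 and -3.19 without dKO-labelled replicate 2. *Gzmb*, the main apoptosis-inducing granzyme, had 9, 1 and 31 reads against 0, 1 and 2, a ratio of 11.6 with an exact 95% counting interval of 3.71 to 58.8.

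*Prf1*, the pore-forming perforin, had 8, 5 and 10 reads against 12, 1 and 1. *Gzma* had 1, 0 and 17 reads against 3, 8 and 4, and *Gzmk* 0, 0 and 4 reads against 0 in each library. For *Prf1* and *Gzma* the pooled counts gave no difference detectable at this depth, with exact 95% counting intervals of 0.690 to 2.94 for the ratio in *Prf1* and 0.486 to 2.18 in *Gzma*. Each ratio rested on a single library that held most reads of its group. It was dKO-labelled replicate 1 with 12 reads in *Prf1* and *Nf1fl/fl;DhhCre* replicate 3 with 17 in *Gzma*. The intervals cover counting error only, as amplified reads are not independent molecules.

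Of the lineage transcription factors, *Foxp3*, which defines regulatory T cells, was at 5.48, 1.67 and 4.36 CPM against 1.83, 2.96 and 1.65 CPM. *Eomes*, a T-box factor of NK and memory cytotoxic T cells, was at 0.832, 0.715 and 1.86 CPM against 0.159, 0.411 and 0.198 CPM. *Foxp3* overlapped between the groups (log2 difference -0.70, SE 0.57) and *Eomes* did not (log2 difference -1.97, SE 0.78), and neither passed (limma-voom adjusted p = 0.429 and 0.120). *Tbx21*, which encodes T-bet, had 6, 22 and 12 reads against 2, 2 and 0, again without overlap. The ratio of the mean levels was 1.79 for *Foxp3* and 17.1 for *Ctla4*, which regulatory T cells also express, and the difference between these ratios was not tested. Exons of *Foxp3* share bases with exons of *Ppp1r3f* and *Ccdc22* on the opposite strand, the larger overlap covering 12.9% of its exon length.

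**Figure D3:**
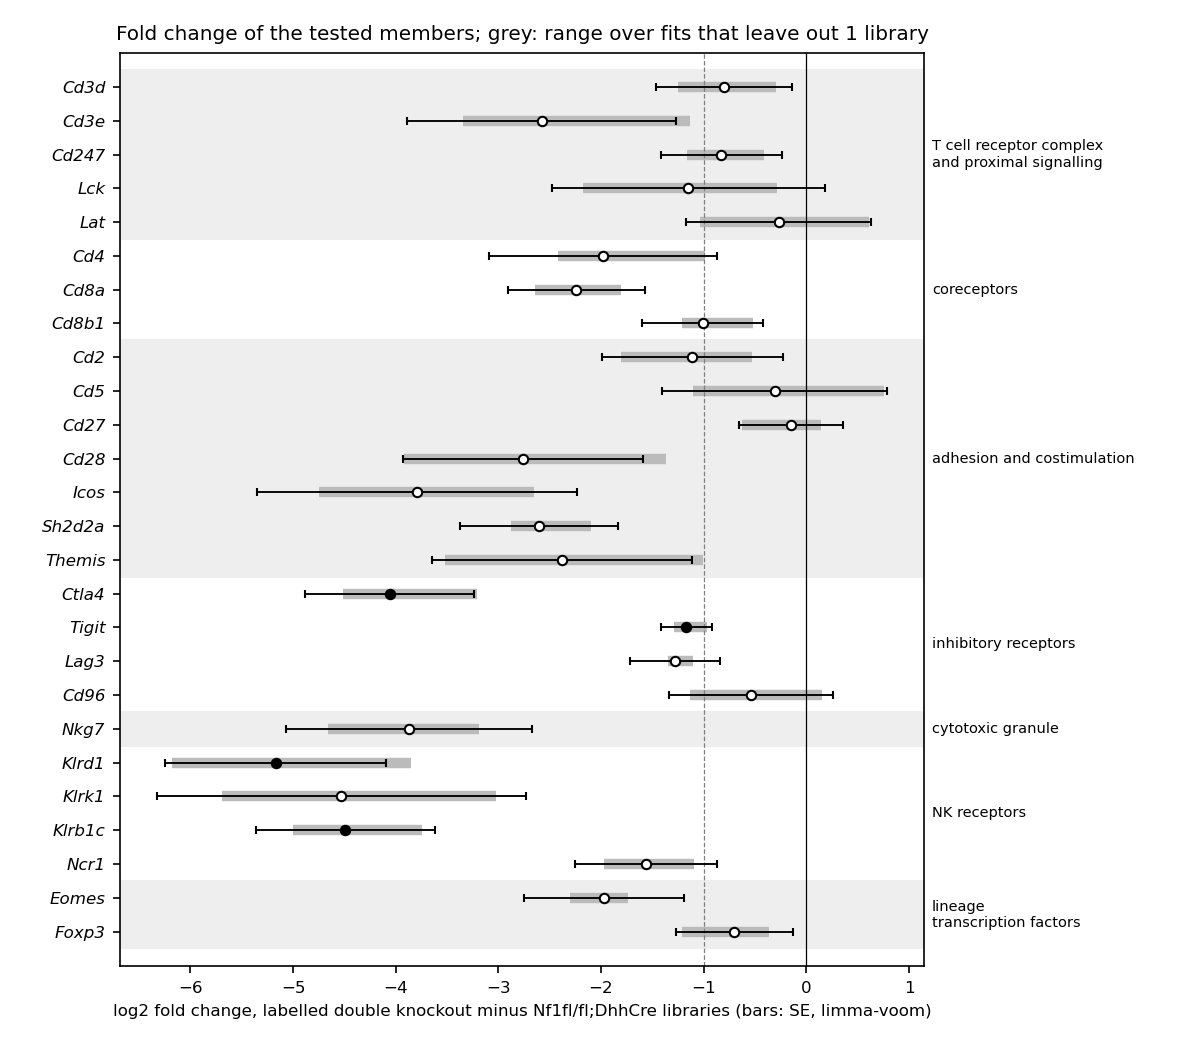
Points give the log2 fold change of the 26 tested genes with its SE from limma-voom, filled for the 4 called lower, and grey bars give the range over the leave-one-out fits, 6 for each gene except *Icos* and *Eomes* with 5. The dashed line marks 2-fold. *Klrd1* lies farthest to the left at -5.17 and *Cd27* nearest to 0 at -0.15, and the grey bars of *Lat*, *Cd5*, *Cd27* and *Cd96* cross 0.

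The calls depended on single libraries. Leaving out 1 library moved the fold change by more than 1.5 times for 15 of the 26 tested genes, *Cd3e*, *Lck*, *Lat*, *Cd4*, *Cd2*, *Cd5*, *Cd28*, *Icos*, *Themis*, *Ctla4*, *Cd96*, *Nkg7*, *Klrd1*, *Klrk1* and *Klrb1c*. Of the genes called, these were *Ctla4* without dKO-labelled replicate 1 (-3.21), *Klrb1c* without replicate 3 (-3.74) and *Klrd1* without replicate 2 (-3.85) or 3 (-6.18). In the 6 fits made with a single library left out, *Klrd1* was called in 3, *Klrb1c* in 2, and *Ctla4* and *Tigit* in 1 each, with log2 fold changes of -6.18 to -3.85, -5.00 to -3.74, -4.51 to -3.21 and -1.29 to -0.97. In these fits no limma-voom adjusted p of the 4 exceeded 0.0825. *Tigit* without *Nf1fl/fl;DhhCre* replicate 2 had an adjusted p of 0.0359 but a change of less than 2-fold. Without *Nf1fl/fl;DhhCre* replicate 1 no gene of the 35 was called, although 9 of the 28 tested there had an unadjusted p below 0.05. The share of all genes at that p was not computed for this fit. Over all genes, the lower calls fell from 839 to 181 in that fit. The median log2 fold change of the tested members there was -1.73. Without *Nf1fl/fl;DhhCre* replicate 3, the library with the highest sum, *Klrd1* alone was called. The 5 libraries of 1 sequencing run are those without dKO-labelled replicate 3 or, by the other numbering, without replicate 2. In the first of these sets *Tigit* alone was called, with *Klrd1* at -6.18 (limma-voom adjusted p = 0.0552), and in the second *Klrd1* alone, at -3.85 (limma-voom adjusted p = 0.0437). With both libraries that held the most skeletal muscle counts left out, *Ctla4*, *Icos*, *Klrb1c* and *Klrd1* were called.

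RUNX proteins bind a core motif, TGTGGT, and are known regulators of T and NK cell genes, which gave a reason to look for it near the start sites. Promoter sequences from RefSeq (GRCm38.p6), 250 bases before to 50 after a start site, were found for 26 of the 35 genes. *Cd4*, *Cd8b1*, *Cd2*, *Cd6*, *Cd28*, *Icos*, *Sh2d2a*, *Lag3* and *Klrd1* were not matched. The motif was present on either strand in 13 of the 32 promoters of these genes (40.6%), belonging to 12 genes, and in 16.8% of all 32851 promoters in the table. Below are windows of 30 bases around it, read in the direction of the gene and with the motif in capitals, TGTGGT on the gene's strand or its reverse complement ACCACA. They are shown for 2 of the genes called, *Klrb1c* and *Tigit*, for some other NK and granule genes, and for both kinases of the T cell receptor.
*Klrb1c*, chr6:128788713-128788742, minus strand: aggaaggaaagcTGTGGTcatggtgttttg
*Klrk1*, chr6:129623976-129624005, minus strand: tgatagctgtgcTGTGGTtgtgtgggggtt
*Ncr1*, chr7:4337527-4337556, plus strand: ttagatccaaaaTGTGGTtaaatgtgttat
*Nkg7*, chr7:43437043-43437072, plus strand: gggcccacccctACCACAtaggaggagagg
*Gzmb*, chr14:56262351-56262380, minus strand: tgtgggttctgcTGTGGTtacttcatgatt
*Tigit*, chr16:43664307-43664336, minus strand: cgtgtatctctaACCACAtgttttatttgt
*Lck*, chr4:129573682-129573711, minus strand: gtgctggaggctTGTGGTtgggttgctggg
*Zap70*, chr1:36764428-36764457, plus strand: tgagcaggttccTGTGGTgggagggaggac

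The motif began 89 bases before the start site in *Klrb1c*, 140 in *Tigit* and 58 in *Lck*. It was found in genes with large differences, such as *Klrk1* and *Nkg7*, as well as in *Lat*, *Cd96*, *Gzma* and *Prf1*, which did not separate the groups. *Ctla4* and *Cd8a* had no match in this window. A match of these letters is a description and no measure of binding.

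The 7 further lists hold genes with which the 35 work. Together they name 137 genes, of which 134 were in the files and 93 were tested. Of these, 29 (31.2%) were called lower and 3 higher by limma-voom, against 5.36% and 8.03% of all genes. The number of lower calls depended on single libraries in these lists and over all genes. In the lists it was 7, 38 and 16 without *Nf1fl/fl;DhhCre* replicate 1, 2 and 3, and 19, 13 and 14 without dKO-labelled replicate 1, 2 and 3. Over all genes tested, lower calls numbered 839 with every library. In the same fits, in the same order, they numbered 181, 1028 and 498, and 577, 326 and 473.

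The counter-receptors, which other cells present to the members, had 5 of 12 tested genes called lower and 0 higher by limma-voom, with a median log2 fold change of -1.80. *Cd80* and *Cd86*, the ligands that CD28 and CTLA4 share, fell by 4.58 (SE 0.62) and 2.75 (SE 0.46) on the log2 scale, and *Icosl*, the ligand of ICOS, by 2.15 (SE 0.29). *H2-T23*, which encodes the Qa-1 molecule read by CD94, fell by 1.72 (SE 0.23). The limma-voom adjusted p of these 4 genes was 0.00919 to 0.0128. In contrast, *Cd274*, which encodes the PD-1 ligand PD-L1, was at a log2 difference of -0.29, and *Pvr*, a ligand of TIGIT, at -0.52, and neither was called. With an unadjusted p below 0.05 there were 10 lower and 1 higher in this list. The 5 lower calls became 3 without *Nf1fl/fl;DhhCre* replicate 1, 9 without replicate 2 of that group, and 4 without any of the other libraries.

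Homing and cytokine receptors had 8 of 18 tested genes called lower and 0 higher by limma-voom, with 12 lower and 0 higher at an unadjusted p below 0.05. *Ccr2* (-2.54, SE 0.45) and *Cx3cr1* (-2.27, SE 0.56), chemokine receptors of monocytes and macrophages as well as of T and NK cells, fell, and so did the interferon-gamma receptor chain *Ifngr1* (-1.02, SE 0.21). Of the chemokines and cytokines that draw or keep lymphocytes, 3 of 12 fell, *Cxcl16* (-2.19, SE 0.54), *Il18* (-1.20, SE 0.33) and *Il15* (-1.08, SE 0.25), the last a survival factor for NK cells. None of this list was called lower in 5 of the 6 leave-one-out fits, and 4 were called without *Nf1fl/fl;DhhCre* replicate 2. The 8 homing and cytokine receptors called became 1 without *Nf1fl/fl;DhhCre* replicate 1, 5 without replicate 3 of that group, and 3 without dKO-labelled replicate 2 or 3. Effector cytokines were mostly below the filter, with 3 of 18 tested and 0 called by limma-voom, edgeR or DESeq2, and 1 at an unadjusted p below 0.05. *Ifng* had 1 read in all *Nf1fl/fl;DhhCre* libraries and 2 in the others.

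Among further NK receptors and their adaptors, 4 of 10 tested genes fell. *Fcer1g* (-2.89, SE 0.51) and *Tyrobp* (-2.66, SE 0.41) encode signalling adaptors that macrophages also express, and *Cd244* (-5.29, SE 1.52) and *Klrb1b* (-4.53, SE 1.29) receptors of NK cells. *Klrb1a*, which lies in the same gene complex as *Klrb1b* and *Klrb1c*, had 203, 168 and 204 reads against 157, 244 and 371 and a log2 difference of 0.60 that did not pass. The lower values were thus not shared by every gene of that family. The 4 calls became 1 without *Nf1fl/fl;DhhCre* replicate 1, and 2 without replicate 3 of that group or without dKO-labelled replicate 2 or 3.

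Further genes of T cell receptor signalling moved in both directions, with 6 of 21 called lower and 2 higher. *Ptprc* (-3.17, SE 0.54), which encodes the leukocyte marker CD45, *Fyb* (-2.74, SE 0.37) and *Lcp2* (-1.38, SE 0.32) fell, whereas *Rasgrp1* (1.93, SE 0.33) and *Prkcq* (1.95) rose. *Rasgrp1* was at 144, 116 and 248 CPM in the dKO-labelled libraries, where *Cd3e* was at 1.28, 1.73 and 0.0660 CPM. Which cells the reads of these signalling genes came from was not tested. Of the further transcription factors, *Ikzf1* (-2.39, SE 0.45), *Id2* (-1.63, SE 0.42) and *Prdm1* (-1.37, SE 0.37) fell and *Satb1* (1.44, SE 0.17) rose, 3 and 1 of 17 tested. The median log2 fold change was -0.58 for the signalling genes and -0.26 for the factors, a list that also names *Runx1* and *Runx3*. Without *Nf1fl/fl;DhhCre* replicate 1, 2 of the signalling genes and 0 of the factors were called lower. With any other single library left out, the lower calls were 4 to 7 signalling genes and 0 to 5 factors, the 0 without dKO-labelled replicate 2 and the 5 without *Nf1fl/fl;DhhCre* replicate 2.

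**Figure D4:**
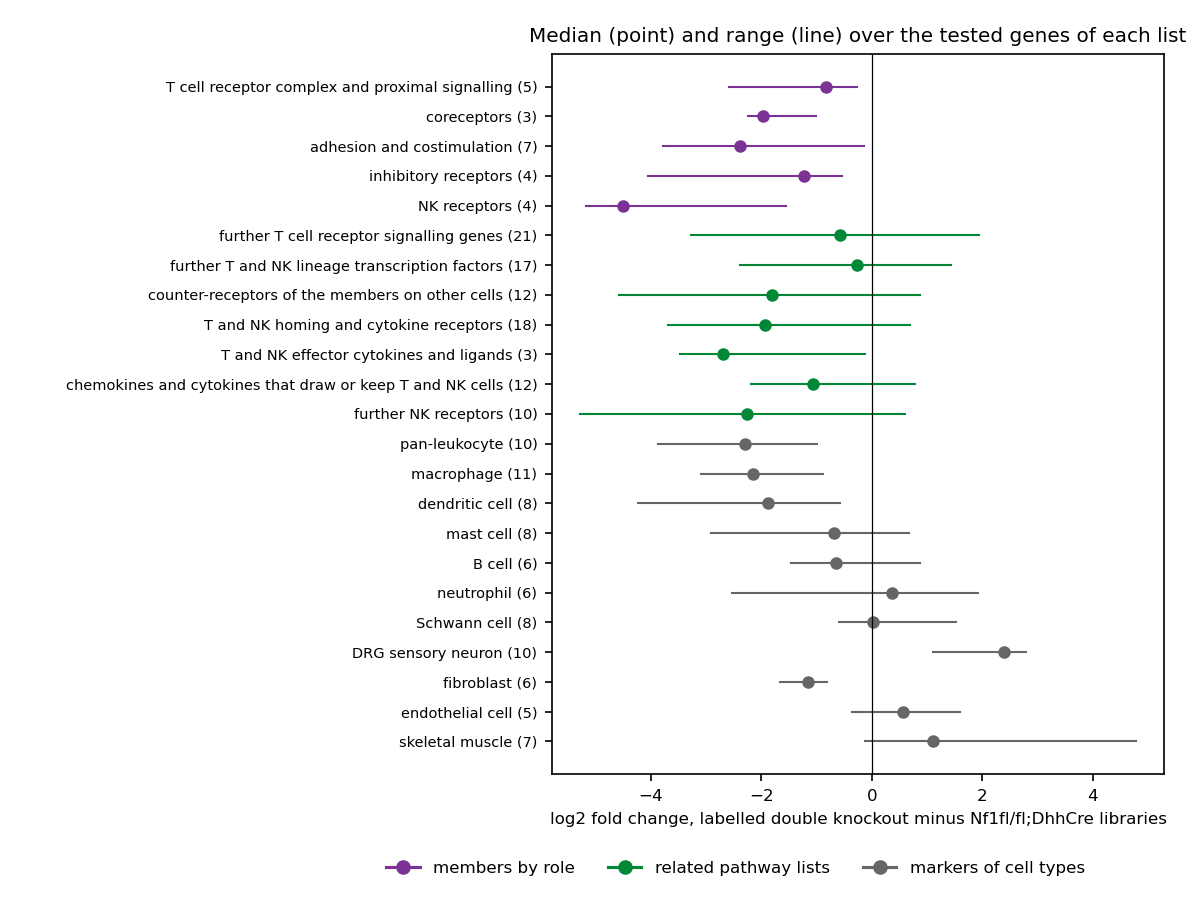
For each list with at least 3 tested genes, the point is the median log2 fold change and the line the range from the lowest to the highest gene, with the number of tested genes in parentheses. Medians of the members run from -4.51 for the NK receptors to -0.83 for the T cell receptor complex, whose *Cd3g* and *Zap70* did not pass the filter, and as the filter shaped these lists their order is no result. The pan-leukocyte, macrophage and dendritic cell markers have medians of -2.30, -2.16 and -1.88 and the DRG sensory neuron markers one of 2.39.

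Markers of other cells moved with the same groups, and the values are given beside the result because several members are not exclusive to lymphocytes. Pan-leukocyte genes summed to 646 to 1700 CPM in the *Nf1fl/fl;DhhCre* libraries and 157 to 316 CPM in those labelled dKO, with 8 of 10 called lower. Macrophage markers summed to 707 to 1570 CPM and 123 to 316 CPM, with 8 of 11 called lower. Dendritic cell markers summed to 232 to 485 CPM and 56.9 to 87.8 CPM, with 2 of 8 called lower. These calls are by limma-voom. For the 3 lists in this order, edgeR called 9, 8 and 4 lower and DESeq2 10, 10 and 5. At an unadjusted p below 0.05 in limma-voom there were 10, 9 and 7 lower. No gene of these lists that was in the files was at 0, and *Adgre1* was not analysed here. *Nf1fl/fl;DhhCre* replicate 3 was the highest library for these lists too.

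Mast cell markers, by contrast, summed to 45.7 to 92.9 CPM and 61.7 to 89.6 CPM, with 0 of 8 called by limma-voom, edgeR or DESeq2, and 1 lower and 1 higher at an unadjusted p below 0.05. B cell markers summed to 7.27 to 25.6 CPM and 6.91 to 9.32 CPM, with 0 of 6 called by these tools and 0 at an unadjusted p below 0.05. DRG sensory neuron markers summed to 187 to 486 CPM and 990 to 2210 CPM, with 9 of 10 called higher, and SC markers to 1930 to 2200 CPM and 2310 to 3230 CPM, with 2 of 8 called higher. The neuron sums were thus higher in the group whose tissue is labelled neurofibroma tumor than in that labelled DRG. Fibroblast markers had 4 of 6 called lower and sums of 7800 to 8570 CPM and 2830 to 4570 CPM. Of 6 neutrophil and 5 endothelial markers limma-voom called 0, with 2 neutrophil markers lower and 2 endothelial markers higher at an unadjusted p below 0.05, while DESeq2 called 1 in each list and edgeR 1 and 0. Skeletal muscle markers had 0 of 7 called by any of these tools and 0 at an unadjusted p below 0.05. The part of these cell types in the values of the members was not tested.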

How the data were processed

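Bulk RNA-seq counts of 6 libraries, 3 per genotype, were used. The authors amplified RNA with the Ovation system, prepared libraries with Nextera XT, aligned paired-end reads to mm10 with TopHat and counted them per gene with featureCounts. The deposited counts are not normalized. Annotation, strandedness and the treatment of multiply aligned reads are not given in the sources used here. Replicates were numbered in accession order, and no library was a copy of another (chi-square per degree of freedom 21.7 to 133 within a group).

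TMM scaling, limma-voom on genotype and the thresholds for a call follow the methods of the study (R 4.3.3, limma 3.58.1, edgeR 4.0.16). The filter on low genes, filterByExpr (at least 10 counts in enough libraries and 15 in all), was chosen here. P-values carry Benjamini-Hochberg adjustment over all genes tested. Ratios of pooled counts carry exact Clopper-Pearson 95% intervals. Exon lengths and positions come from GENCODE M21. Every member is described, by CPM where tested and otherwise by reads. Related lists are named by their called genes, at most 4 a list by mean CPM (1 such gene is not reported here), and *Cd274*, *Pvr*, *Ifng*, *Klrb1a* and *Prkcq* were added after their values were seen. Members and lists were chosen with earlier results of these data known. The fits were tested on simulated data. Alternatives were edgeR, DESeq2 1.42.0, other scalings, filters and weights, and leaving out each library. P-values set the difference between the groups against the spread between these libraries.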

Additional observations from a re-analysis of the deposited data

How the results depend on the processing

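No paired analysis was possible because the replicate numbers follow accession order and tie no animals together across the groups. The number of members called lower, 4 here, was 7 with edgeR's quasi-likelihood test and 10 with DESeq2, and ranged from 0, without *Nf1fl/fl;DhhCre* replicate 1, to 5 when single libraries were left out. None was called higher in any setting. Over the fits without a single library, all genes called ranged from 362 to 2285 (181 to 1028 lower, 181 to 1304 higher), genes of the related lists called lower from 7 to 38 and higher from 1 to 5. In those fits the median log2 fold change of the tested members ranged from -2.10 to -1.16, and with all libraries it was -1.28 with a stricter filter (CPM above 1 in 3 or more libraries), which left 21 of them. Among single members the sign changed for *Lat* with sample quality weights (0.35) and without a library for *Lat* (-1.04 to 0.61), *Cd5* (-1.10 to 0.76), *Cd27* (-0.63 to 0.14) and *Cd96* (-1.13 to 0.15). The causes of these changes were not tested, and the fits without a library also hold fewer samples. CPM from library totals moved none of 70 group means by more than their SD. DESeq2 called 2907 genes in all (1236 lower, 1671 higher), against 2096 here. Leaving out both libraries rich in skeletal muscle counts, chosen after seeing the data, gave a median of -2.19. Depth limits the 9 members that were not tested, each with 44 reads or fewer in all.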
